A study of Mus musculus with 3 samples.

Results

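The 44 protein-coding mouse genes whose symbols run from Col1a1 to Col28a1 (Col, a type number, a, a chain number) encode the chains of the collagen superfamily. They were picked by symbol from the 27179 genes measured, with no threshold on expression. A collagen molecule is a rope of 3 chains, which may be alike or come from different genes, wound together through repeats of regularly spaced glycine residues. Fibrillar chains build the rope-like fibrils of bone, skin and cartilage. FACIT chains sit on the surface of those fibrils, type VI chains form beaded filaments around cells, type IV chains form the sheet of basement membranes, and transmembrane chains stay anchored in the cell surface. In bone, type I collagen laid down by osteoblasts is the scaffold on which mineral is deposited.

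The collagen genes were measured by messenger RNA sequencing in 3 cultures of mouse bone marrow stromal cells of wild-type genotype, kept at 3% oxygen and treated for 3 days with extracellular vesicles from bone marrow plasma. The Ocn-EV culture received vesicles of mice carrying the CAGS-Snorkel transgene and Ocn-Cre, a driver active in mature osteoblasts. The Prx1-EV culture received vesicles of CAGS-Snorkel mice carrying Prx1-Cre, a driver active in limb mesenchyme and its descendants. The All-EV culture, the control, received vesicles of wild-type mice. All donor mice were C57BL/6N and 6 months old, and plasma of 5 mice (2 male and 3 female) was pooled for each preparation, so each vesicle group was 1 pool. All 3 preparations are described as captured with an HA antibody; how vesicles of wild-type mice, with no tag named, were retained by it is unstated.

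Each group was 1 library (n = 1), so differences below lack replicates and carry no p-values for the conditions. The libraries held 14233978 (Ocn-EV), 17269204 (Prx1-EV) and 15558165 (All-EV) reads assigned to genes. Levels are the deposited normalised counts, log2 ratios are of level plus 1, and bracketed ranges are 95% exact binomial intervals. Those intervals cover counting error only, not the spread between cultures. "Higher" and "lower" compare single libraries, and in bulk RNA fewer cells of a type and less RNA per cell cannot be told apart.

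Of the 44 collagen genes, 38 had a read in every library and 1, Col6a5, had none in any. A mean level of at least 50 over the 3 libraries was required for counts and medians, and 21 collagen genes met it, against 11067 of all genes. The requirement can favour genes that are high in 1 library, so counts over the 21 are descriptions and not evidence on the family. The nearest collagen genes on each side of it were Col20a1, with a mean level of 77.8, and Col23a1, with a mean level of 40.6.

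Reads on collagen genes made up a larger part of both Cre-derived vesicle cultures than of the control culture. All 44 genes together took 0.807% of reads (0.803 to 0.812) in Ocn-EV, 0.551% (0.547 to 0.554) in Prx1-EV and 0.135% (0.133 to 0.137) in All-EV. The share of reads was 5.99-fold higher in Ocn-EV than in All-EV, a log2 ratio of 2.58 (2.56 to 2.60). It was 4.08-fold higher in Prx1-EV than in All-EV (log2 2.03, 2.01 to 2.05) and 1.47-fold higher in Ocn-EV than in Prx1-EV (log2 0.55, 0.54 to 0.56). With the authors' size factors in place of shares, the same 3 ratios were 5.01-fold, 3.49-fold and 1.43-fold.

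**Figure D1:**
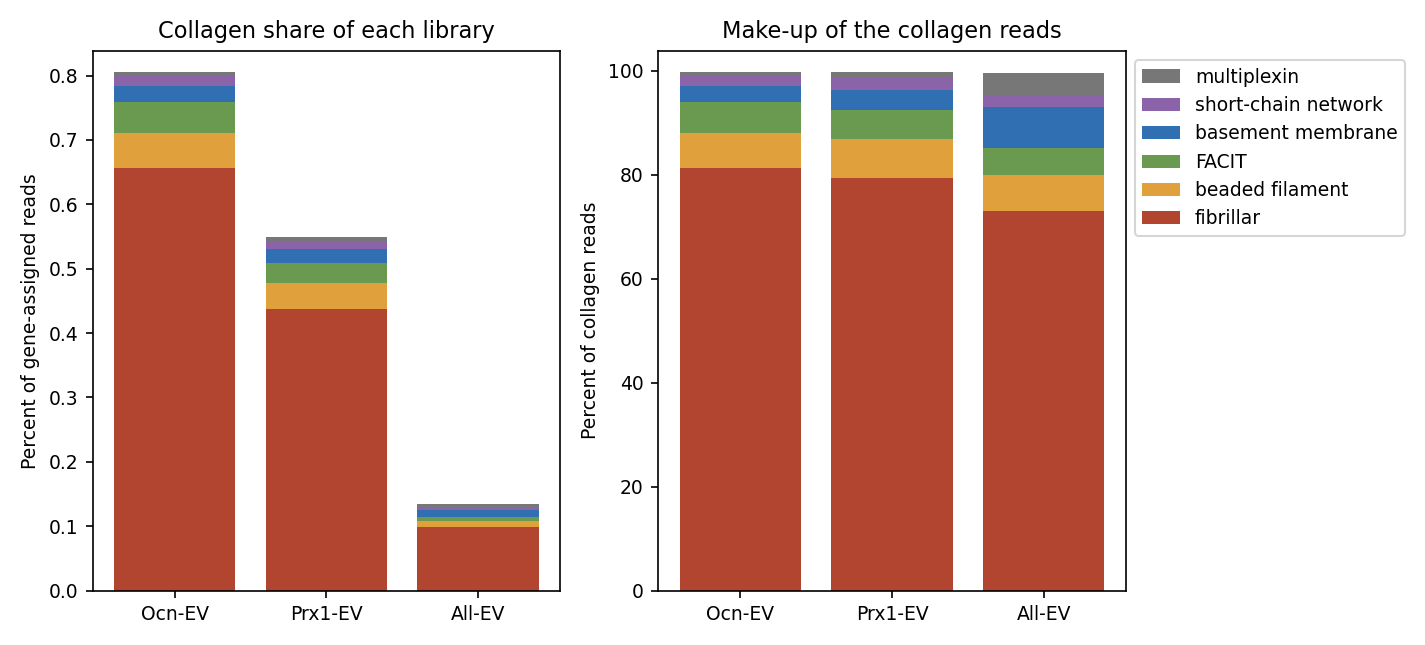
Stacked bars of reads on 6 collagen classes in the Ocn-EV, Prx1-EV and All-EV libraries (n = 1 each), as a percent of gene-assigned reads (left) and as a percent of collagen reads (right). The total stands at 0.807%, 0.551% and 0.135% of reads, and basement membrane chains make up 2.98%, 3.88% and 7.99% of collagen reads. Classes with fewer reads are left out.

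By gene, 16 of the 21 collagen genes were at least 2-fold higher in Ocn-EV than in All-EV, where 6.27% of all genes at the same mean level were. None of the 21 was 2-fold lower, against 4.2% of all genes. In Prx1-EV, 15 of 21 were at least 2-fold higher than in All-EV (5.12% of all genes) and 0 were 2-fold lower (3.66% of all genes). The median log2 ratio of the 21 was 2.21 in Ocn-EV over All-EV and 1.79 in Prx1-EV over All-EV, beside −0.02 and 0.00 for all genes. Over all 43 collagen genes with a read in any library the medians were 0.75 and 0.90, beside 0 and 0 for all 18745 genes with a read. The 0.90 is the value of Col28a1, which had 1 read in Prx1-EV and 0 in All-EV, so the pseudocount sets it. Both comparisons use the 1 All-EV library. At 1.5-fold, 17 were higher and 1 lower in Ocn-EV over All-EV, where 13.8% and 13.6% of all genes were. At 1.5-fold in Prx1-EV over All-EV, 18 were higher and 0 lower, where 12.7% of all genes were higher and 12.7% lower.

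Scaling all libraries to equal totals put the median log2 ratio of all genes at 0.24 for Ocn-EV over All-EV and 0.22 for Prx1-EV over All-EV. On that scale 17 of 21 collagen genes were 2-fold higher in each of those comparisons, where 10.1% and 8.2% of all genes were. None was 2-fold lower, against 2.24% and 2.1% of all genes. Collagen transcripts at the required level were long, with a median of 5930 bases against 3521.5 for all genes, and rich in G and C, at 56.4% against 49.7%. With the trend of log2 ratios on transcript length and GC content removed, 13 of 21 were 2-fold higher in Ocn-EV over All-EV (5.72% of all genes) and 12 of 21 in Prx1-EV over All-EV (4.73% of all genes). With that trend removed 1, Col18a1, was 2-fold lower in Ocn-EV over All-EV and 0 in Prx1-EV over All-EV, against 3.42% and 3.14% of all genes. Genes no longer 2-fold higher in Ocn-EV were Col16a1 (log2 0.83), Col4a1 (0.65) and Col4a5 (0.85), and in Prx1-EV they were Col16a1 (0.71), Col11a1 (0.86) and Col20a1 (0.92).

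**Figure D2:**
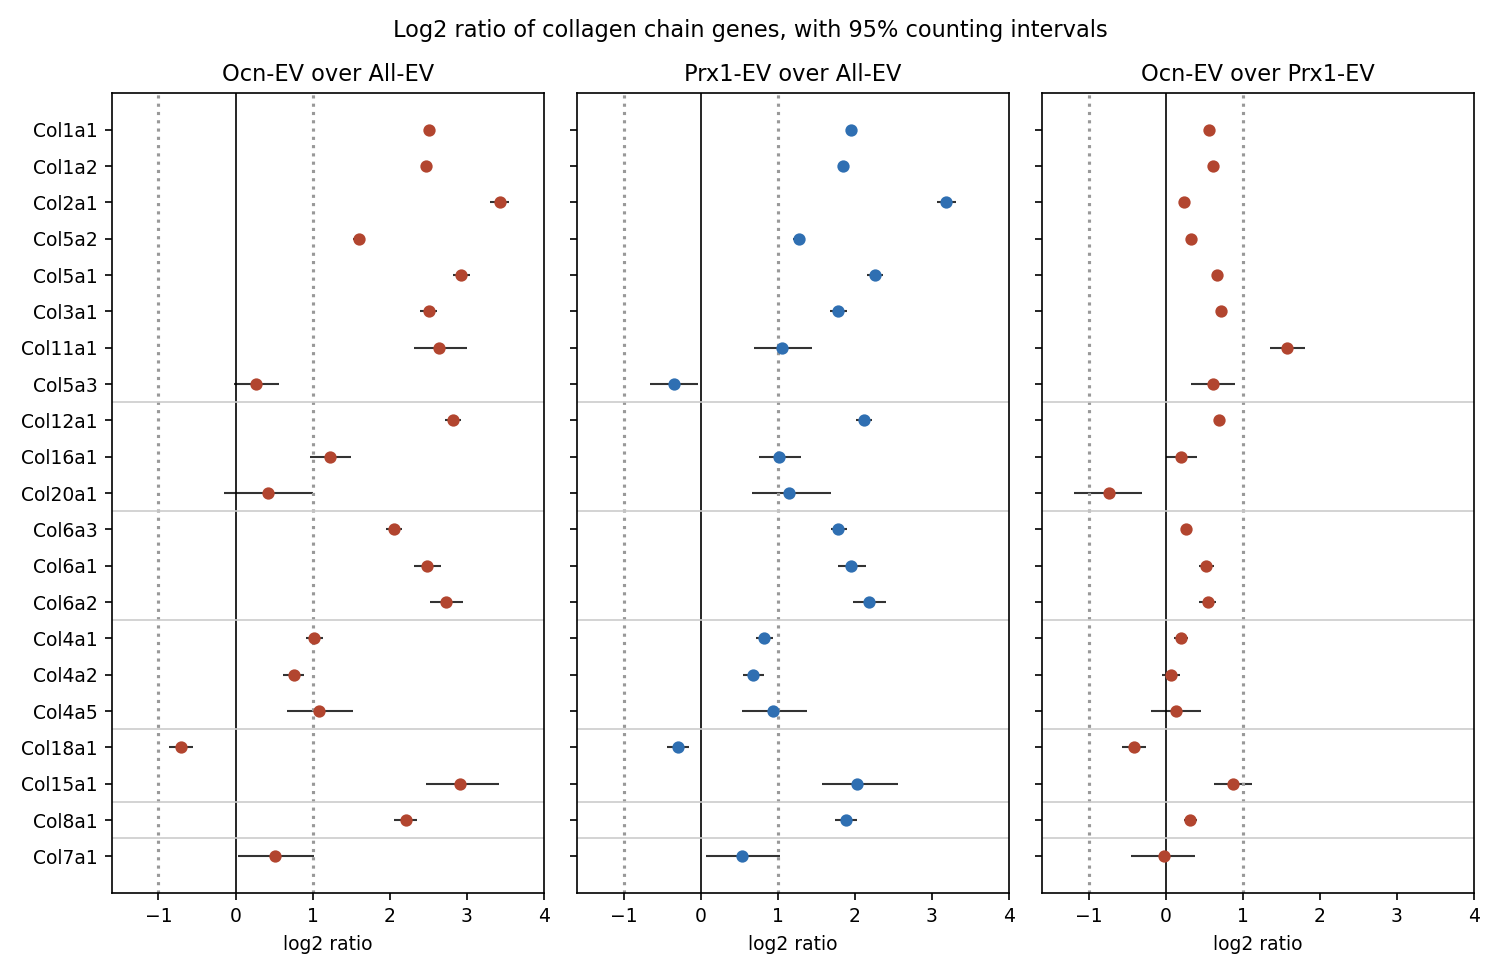
Log2 ratio of 21 collagen genes between libraries (n = 1 each) in Ocn-EV over All-EV, Prx1-EV over All-EV and Ocn-EV over Prx1-EV; bars are 95% counting intervals and dotted lines mark 2-fold. In the comparisons with All-EV, 16 and 15 genes lie at or past the right dotted line and Col18a1 lies left of 0 in both; against Prx1-EV, Col11a1 lies past it.

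The promoter sequences of the abundant genes Col1a2, Col3a1 and Col5a1 and of Col18a1, the gene below All-EV in both comparisons, are shown to set genes that differed in direction side by side. Each is the 250 bases before the annotated start, 5′ to 3′ on the gene's strand, from RefSeq on GRCm38.p6. A window was at hand for 35 of the 44 genes, and Col1a1, Col2a1, Col12a1 and Col5a2 were among those without one. Col18a1 has 2 windows; the one shown holds motifs, and the other, at chr10:77113706-77113955, holds none of the 3 motifs and has a GC content of 57.6%. Capitals mark the TATA box motif TATAAA, the CCAAT box motif CCAAT and the GC box motif GGGCGG. Both strands were searched, so a match on the other strand reads as the reverse complement, and no 2 motifs overlap in the windows shown. The Col1a2 window lies on chromosome 6, chr6:4505368-4505617 (plus strand), that of Col3a1 at chr1:45311288-45311537 (plus), that of Col5a1 at chr2:27886175-27886424 (plus) and that of Col18a1 at chr10:77166531-77166780 (minus).
Col1a2: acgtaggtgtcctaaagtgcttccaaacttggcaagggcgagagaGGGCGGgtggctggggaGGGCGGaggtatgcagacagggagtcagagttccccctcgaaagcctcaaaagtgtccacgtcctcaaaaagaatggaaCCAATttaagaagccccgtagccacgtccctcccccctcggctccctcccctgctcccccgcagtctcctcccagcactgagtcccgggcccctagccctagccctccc
Col3a1: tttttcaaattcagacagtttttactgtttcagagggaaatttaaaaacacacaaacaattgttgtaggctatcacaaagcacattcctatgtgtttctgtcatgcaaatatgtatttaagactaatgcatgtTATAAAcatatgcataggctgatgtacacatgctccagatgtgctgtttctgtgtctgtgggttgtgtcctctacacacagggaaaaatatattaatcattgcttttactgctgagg
Col5a1: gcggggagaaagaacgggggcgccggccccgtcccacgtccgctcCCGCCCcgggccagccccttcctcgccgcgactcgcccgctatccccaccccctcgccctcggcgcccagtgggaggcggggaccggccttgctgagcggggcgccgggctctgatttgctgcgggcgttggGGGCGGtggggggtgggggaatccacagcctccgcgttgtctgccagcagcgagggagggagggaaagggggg
Col18a1: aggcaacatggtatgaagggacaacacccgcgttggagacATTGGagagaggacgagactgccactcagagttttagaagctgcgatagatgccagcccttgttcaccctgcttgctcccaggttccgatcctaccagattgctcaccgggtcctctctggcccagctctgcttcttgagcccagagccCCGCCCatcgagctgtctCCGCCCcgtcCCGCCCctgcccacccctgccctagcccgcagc

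The windows differed in base composition and motifs although Col1a2, Col3a1 and Col5a1 were all several-fold higher in the Cre-derived cultures. GC content was 62.0% for Col1a2, 35.2% for Col3a1, 76.4% for Col5a1 and 62.0% for the Col18a1 window shown. The motif GGGCGG occurred 2 times in Col1a2, 2 times in Col5a1, 3 times in the Col18a1 window shown and 0 times in Col3a1. Of 38 windows of the 35 genes, 22 held the GC box motif, 13 the CCAAT box motif and 5 the TATA box motif. Of the 32851 windows of all genes, 32.7% held the GC box, 33.8% the CCAAT box and 12.4% the TATA box motif. The median GC content was 59% for the collagen windows and 52.4% for all windows, and its part in the GC box count was not tested. A match is a description of the letters and not a binding site.

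Fibrillar chains carried most of the collagen reads, at 81.2% in Ocn-EV (81.0 to 81.5), 79.4% in Prx1-EV (79.2 to 79.7) and 72.9% in All-EV (72.3 to 73.5). Of the 11 fibrillar genes 8 met the required level, and 7 of these were 2-fold higher in each Cre-derived culture than in All-EV. Col1a1 and Col1a2 encode the 2 chains of type I collagen, the main protein of bone matrix. Col1a1 stood at 44981 in Ocn-EV, 30399 in Prx1-EV and 7861 in All-EV. Col1a2 stood at 25448 in Ocn-EV, 16630.0 in Prx1-EV and 4596 in All-EV. Its log2 ratio was 2.47 (2.42 to 2.52) for Ocn-EV over All-EV and 1.86 (1.81 to 1.90) for Prx1-EV over All-EV. Together the type I genes took 59.2% of collagen reads in Ocn-EV, 56.7% in Prx1-EV and 52.5% in All-EV.

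Col3a1, whose type III collagen forms finer fibrils beside type I in soft tissue, stood at 4943 in Ocn-EV, 3006 in Prx1-EV and 869 in All-EV. The Ocn-EV to All-EV log2 ratio of Col3a1 was 2.51 (2.40 to 2.62) and its Prx1-EV to All-EV ratio was 1.79 (1.68 to 1.90). The log2 ratios of Col1a1, Col1a2 and Col3a1 to All-EV thus lay between 2.47 and 2.52 in Ocn-EV.

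Col2a1 encodes the type II collagen typical of cartilage, and it had the highest log2 ratio of the 21 in both comparisons with All-EV. Its level was 7012 in Ocn-EV, 5950.4 in Prx1-EV and 651 in All-EV, which is 10.8-fold higher in Ocn-EV and 9.14-fold higher in Prx1-EV than in All-EV. The log2 ratios were 3.43 (3.31 to 3.56) and 3.19 (3.07 to 3.32). Per kilobase of transcript it came next after the type I chains in Ocn-EV and in Prx1-EV, and at rank 7 in All-EV. With the union of annotated exons as length it had rank 4 in Ocn-EV, below Col5a1, rank 3 in Prx1-EV and rank 11 in All-EV. Other cartilage genes stood at low levels. In a list of 7 chondrocyte markers none met the required level, and the list summed to 93.2 in Ocn-EV, 70.7 in Prx1-EV and 56.6 in All-EV. Without Comp, a cartilage and tendon matrix protein, the other 6 summed to 39.3 in Ocn-EV, 39.3 in Prx1-EV and 52.1 in All-EV. Acan, the cartilage proteoglycan aggrecan, had 5.18, 6.11 and 0 in Ocn-EV, Prx1-EV and All-EV, and the cartilage regulator Sox9 had 24.9, 27.9 and 47.5.

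The collagens that join type II in cartilage fibrils were far less abundant than Col2a1. The type IX genes Col9a1, Col9a2 and Col9a3 had levels of at most 40.4 in any library. Col9a3, of whose exon bases 6.07% lie opposite Tcfl5, had 39 reads in Ocn-EV, 37 in Prx1-EV and 4 in All-EV (log2 2.90, 1.69 to 5.10, for Ocn-EV over All-EV). Col9a1 had 21, 17 and 16 reads in Ocn-EV, Prx1-EV and All-EV, and Col9a2 had 6, 1 and 7. Col11a1, a type XI chain that sets fibril width in cartilage, stood at 575 in Ocn-EV, 192 in Prx1-EV and 91.7 in All-EV. Its ratio to Col2a1 in reads per kilobase was 0.0546 (0.0499 to 0.0595) in Ocn-EV, 0.0215 (0.0187 to 0.0246) in Prx1-EV and 0.0938 (0.0734 to 0.119) in All-EV. Col11a2, a second type XI chain, stood at 61.1 in Ocn-EV, 27.0 in Prx1-EV and 24.9 in All-EV.

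The type V genes, whose chains nucleate type I fibrils and limit their width, did not move together. Col5a1 stood at 7108 in Ocn-EV, 4467 in Prx1-EV and 931 in All-EV, with log2 ratios to All-EV of 2.93 (2.83 to 3.04) and 2.26 (2.16 to 2.37). Col5a2 stood at 6268 in Ocn-EV, 5005 in Prx1-EV and 2063 in All-EV, with ratios of 1.60 (1.53 to 1.68) and 1.28 (1.20 to 1.36). Col5a3, a less widespread type V chain, stood at 239 in Ocn-EV, 156 in Prx1-EV and 198 in All-EV. Its ratio to All-EV did not exceed counting error in Ocn-EV (0.27, −0.02 to 0.56) and lay below 0 in Prx1-EV (−0.34, −0.65 to −0.03). With the trend on length and GC removed, the Ocn-EV value of Col5a3 was −0.17. The last 2 fibrillar genes, Col24a1 and Col27a1, had levels between 6.21 and 30.5.

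**Figure D3:**
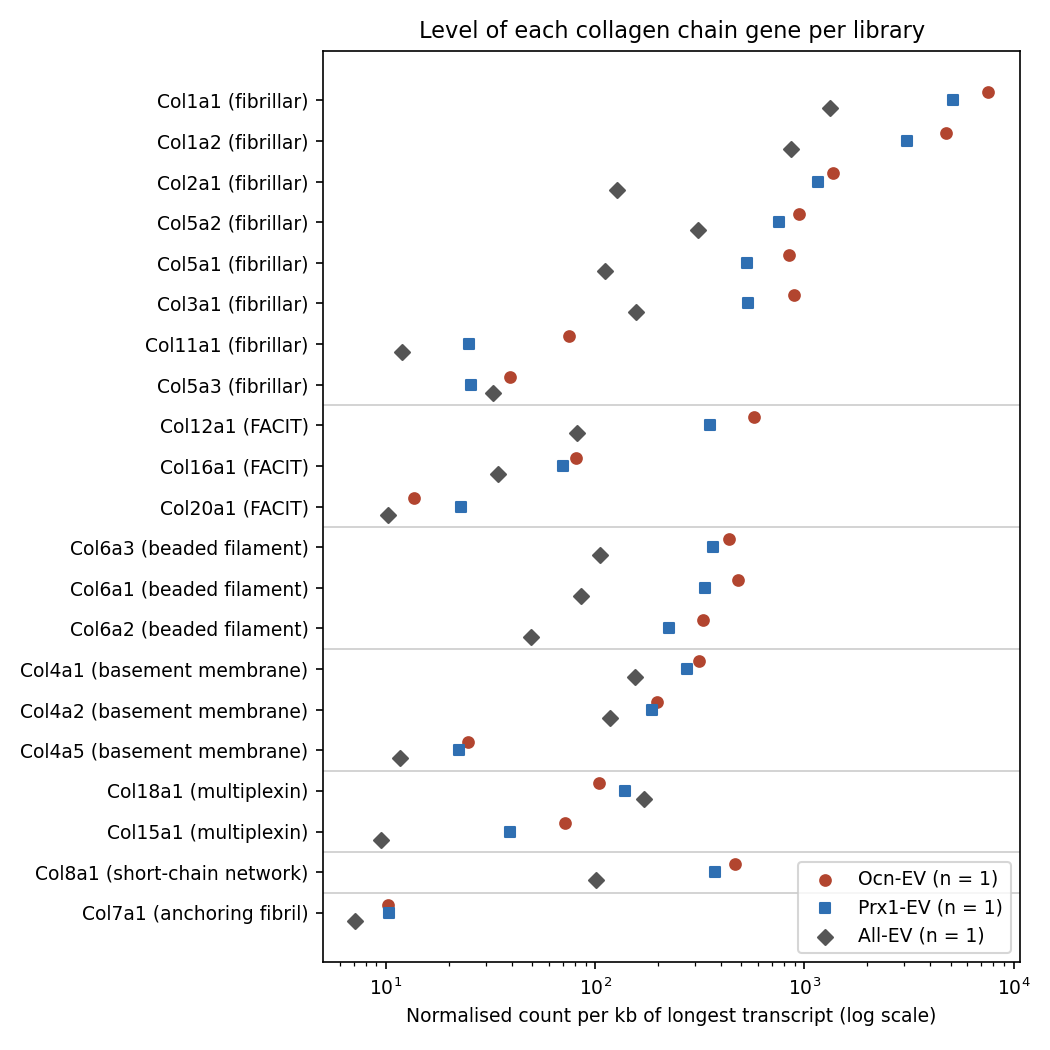
Normalised count per kilobase of the longest transcript (log axis) of 21 collagen genes, grouped by class, in the Ocn-EV, Prx1-EV and All-EV libraries (n = 1 each). Points of Col1a1 stand at 7585, 5126 and 1326 per kilobase, and the 3 points lie in the order Ocn-EV, Prx1-EV, All-EV from high to low for 17 of the 21 genes. The share of all genes in that order was not counted.

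Among FACIT chains, Col12a1, which coats type I fibrils in tendon and bone surfaces, was the abundant one. It stood at 6628 in Ocn-EV, 4081 in Prx1-EV and 938 in All-EV (log2 2.82, 2.72 to 2.93, for Ocn-EV over All-EV; 2.12, 2.01 to 2.23, for Prx1-EV over All-EV). Col16a1, found in fibril-associated networks of several tissues, stood at 419 in Ocn-EV, 365 in Prx1-EV and 179 in All-EV. Its ratios to All-EV were near 2-fold (log2 1.23, 0.96 to 1.5, for Ocn-EV; 1.02, 0.76 to 1.30, for Prx1-EV). Col20a1 had another order, with 68.3 in Ocn-EV, 114 in Prx1-EV and 50.9 in All-EV, so that Ocn-EV was below Prx1-EV (log2 −0.73, −1.19 to −0.30). Col14a1, a FACIT chain of fibroblasts in many tissues, had 5, 2 and 9 reads in Ocn-EV, Prx1-EV and All-EV. Col19a1 and Col22a1 had at most 13 reads in any library.

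The beaded filament genes of type VI collagen, which surrounds stromal cells and tethers them to fibrils, were split into 3 abundant and 3 scarce ones. Col6a1 stood at 1978 in Ocn-EV, 1371 in Prx1-EV and 352 in All-EV. Col6a2 stood at 1614 in Ocn-EV, 1104 in Prx1-EV and 242 in All-EV, and Col6a3 at 4414 in Ocn-EV, 3678 in Prx1-EV and 1063 in All-EV. Every one of the 3 was more than 3-fold higher in both Cre-derived cultures than in All-EV. Their log2 ratios in Ocn-EV over All-EV were 2.49 (2.32 to 2.67), 2.73 (2.53 to 2.95) and 2.05 (1.95 to 2.16), and those in Prx1-EV over All-EV were 1.96, 2.18 and 1.79. Col6a4 had 6, 1 and 8 reads in Ocn-EV, Prx1-EV and All-EV, Col6a6 had 4, 2 and 4, and Col6a5 had 0, for which a floor of 3 reads per library was set.

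Col8a1 encodes a short chain of the hexagonal network of type VIII collagen, known from vessel walls and the cornea. It stood at 2385 in Ocn-EV, 1906 in Prx1-EV and 516 in All-EV (log2 2.21, 2.06 to 2.36, and 1.88, 1.74 to 2.03). Its partner Col8a2 was under the required level, with 56, 46 and 5 reads in Ocn-EV, Prx1-EV and All-EV (log2 3.15, 2.05 to 5.03, for Ocn-EV over All-EV). Col10a1, the network chain of hypertrophic cartilage, had 3, 9 and 0 reads.

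Basement membrane chains differed less between libraries than fibrillar ones. Summed over the 6 type IV genes, levels were 1.87-fold higher in Ocn-EV and 1.70-fold higher in Prx1-EV than in All-EV, beside 5.58-fold and 3.80-fold for the 11 fibrillar genes. Their part of collagen reads was 2.98% (2.88 to 3.08) in Ocn-EV, 3.88% (3.75 to 4.0) in Prx1-EV and 7.99% (7.62 to 8.36) in All-EV. Col4a1 and Col4a2, the chains of nearly all basement membranes, stood at 2080.2 and 1273 in Ocn-EV, 1815 and 1211 in Prx1-EV and 1022 and 755 in All-EV. Their log2 ratios in Ocn-EV over All-EV were 1.02 (0.91 to 1.14) and 0.75 (0.62 to 0.89), and in Prx1-EV over All-EV 0.83 (0.72 to 0.94) and 0.68 (0.55 to 0.82).

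Col4a5, a chain of kidney and other specialised basement membranes, stood at 162 in Ocn-EV, 147 in Prx1-EV and 75.8 in All-EV. Col4a3 and Col4a4, its kidney partners, had at most 30.6 in any library. Col4a4 had 2 reads in Ocn-EV, 15 in Prx1-EV and 11 in All-EV. Col4a6 had 6, 12 and 0 reads. An endothelial marker list of 6 genes summed to 1817 in Ocn-EV, 2136 in Prx1-EV and 1868 in All-EV, with 0 of 4 at the required level past 2-fold in either comparison with All-EV, and no member was at 0 in all libraries. Among all genes 6.27% and 5.12% were 2-fold higher in those comparisons. With equal totals 1 of the 4 was 2-fold higher in Prx1-EV over All-EV, where 8.2% of all genes were. The part of the endothelial list in the type IV values was not tested.

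The multiplexins, basement membrane chains that carry sugar side chains, went opposite ways. Col15a1 stood at 372 in Ocn-EV, 202 in Prx1-EV and 48.7 in All-EV (log2 2.91, 2.47 to 3.42, and 2.03, 1.58 to 2.56). Col18a1, the source of the endostatin fragment that restrains vessel growth, stood at 585 in Ocn-EV, 777 in Prx1-EV and 953 in All-EV. It was the one gene of the 21 below All-EV in both comparisons, at −0.70 (−0.86 to −0.55) for Ocn-EV and −0.29 (−0.43 to −0.16) for Prx1-EV. With equal totals those values were −0.45 and −0.07, and with the trend on length and GC removed −1.10 and −0.62. Col18a1 made up 0.492% of collagen reads in Ocn-EV, 0.937% in Prx1-EV and 4.01% in All-EV. Per kilobase it had rank 4 of the 44 genes in All-EV, where it did not differ from Col3a1 beyond counting error (ratio 1.09, 0.988 to 1.20), and rank 14 in Ocn-EV and in Prx1-EV; with exon-union lengths it had rank 5 in All-EV and rank 14 in the others.

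Col7a1, the anchoring fibril chain that fastens epithelium to the tissue below, stood at 94.2 in Ocn-EV, 96.0 in Prx1-EV and 65.6 in All-EV. Its ratios to All-EV (0.51, 0.03 to 1.02, and 0.54, 0.08 to 1.03) barely cleared counting error, and with the trend on length and GC removed they were −0.02 and 0.10. The 4 transmembrane genes, Col13a1, Col17a1, Col23a1 and Col25a1, were all under the required level. Col23a1 was the highest of them, at 43.5 in Ocn-EV, 44.5 in Prx1-EV and 34.0 in All-EV. The others had at most 11 reads in any library, and Col26a1 and Col28a1, which belong to neither class, had at most 4. Of the 23 genes under the required level, 12 had at most 10 reads in every library, so differences in them were not detectable at this depth unless very large. Intervals against All-EV lay below 0 for Col4a4 in Ocn-EV (log2 −2.13, −5.80 to −0.39). In Prx1-EV they did for Col14a1 (−2.03, −5.79 to −0.27), Col9a2 (−2.25, −8.68 to −0.22) and Col6a4 (−2.42, −8.85 to −0.48). They lay above 0 for Col9a3, Col8a2 and Col4a6 in both, Col11a2 in Ocn-EV and Col10a1 in Prx1-EV.

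Several collagen genes lie next to each other in the mouse genome (GRCm38). Col4a1 and Col4a2 start head to head on chromosome 8, with the annotated genes overlapping by 85 bases, and Col4a1 was the higher of the pair in all 3 libraries. The pair Col4a5 and Col4a6 on chromosome X also starts head to head, 1.27 kb apart, yet Col4a5 had 156, 168 and 67 reads in Ocn-EV, Prx1-EV and All-EV where Col4a6 had 6, 12 and 0. Col3a1 and Col5a2 end 24.6 kb apart on chromosome 1, and their log2 ratios in Ocn-EV over All-EV were 2.51 and 1.60. Col6a2 and Col6a1 lie 85.2 kb apart on the same strand of chromosome 10, at log2 ratios of 2.73 and 2.49. Col18a1 lies 326 kb from Col6a1 on that strand, at −0.70.

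The balance between chains of one collagen type differed little between libraries for type I and more for type V. In reads per kilobase of the longest transcript, Col1a1 stood to Col1a2 at 1.59 (1.5693 to 1.6193) in Ocn-EV, 1.65 (1.6197 to 1.6780) in Prx1-EV and 1.54 (1.4838 to 1.6038) in All-EV. The Prx1-EV interval overlapped neither of the others, though the ratios lay between 1.54 and 1.65. The level of Col1a1, by contrast, was 5.72-fold higher in Ocn-EV and 3.87-fold higher in Prx1-EV than in All-EV. Col5a1 stood to Col5a2 at 0.894 (0.863 to 0.925) in Ocn-EV, 0.704 (0.677 to 0.731) in Prx1-EV and 0.356 (0.327 to 0.387) in All-EV, and these 3 intervals did not overlap. Col5a1 stood to Col5a3 at 21.6 (19.0 to 24.8) in Ocn-EV, 20.8 (17.9 to 24.3) in Prx1-EV and 3.42 (2.90 to 4.05) in All-EV.

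For type IV, Col4a1 stood to Col4a2 at 1.59 (1.48 to 1.71) in Ocn-EV, 1.46 (1.37 to 1.57) in Prx1-EV and 1.32 (1.19 to 1.46) in All-EV. For type VI, Col6a1 stood to Col6a2 at 1.47 in Ocn-EV, 1.49 in Prx1-EV and 1.74 (1.46 to 2.08) in All-EV. Col6a3 stood to Col6a1 at 0.905 (0.858 to 0.956) in Ocn-EV, 1.09 (1.03 to 1.15) in Prx1-EV and 1.22 (1.08 to 1.4) in All-EV. The absolute value of such a ratio rests on the assumed length. With the union of annotated exons as length, Col1a1 to Col1a2 was 3.35 in Ocn-EV, 3.46 in Prx1-EV and 3.24 in All-EV, and Col5a1 to Col5a2 was 1.28 in Ocn-EV, 1.01 in Prx1-EV and 0.510 in All-EV. The length is the same in all libraries, so the fold between libraries does not depend on it.

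**Figure D4:**
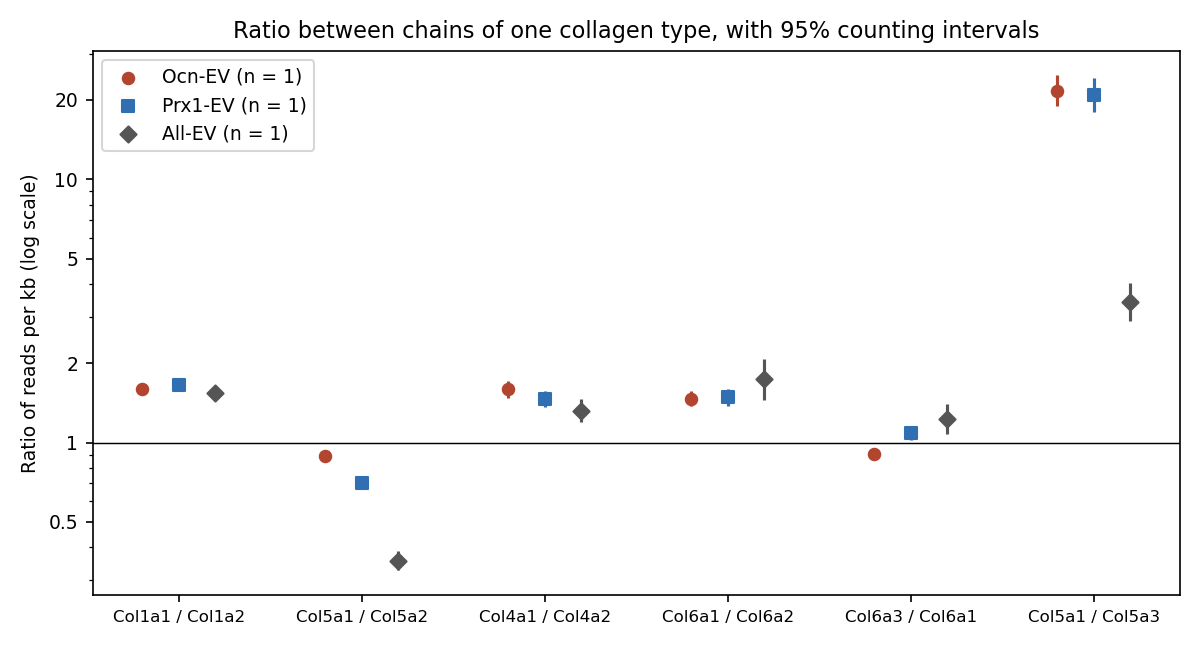
Ratio of reads per kilobase between chains of type I, V, IV and VI collagen (log axis) in the Ocn-EV, Prx1-EV and All-EV libraries (n = 1 each), with 95% counting intervals. Col1a1 over Col1a2 lies at 1.59, 1.65 and 1.54, while Col5a1 over Col5a2 lies at 0.894, 0.704 and 0.356 and Col5a1 over Col5a3 at 21.6, 20.8 and 3.42.

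In order of level per kilobase of the longest transcript, Col1a1 and Col1a2 led in all 3 libraries. In Ocn-EV the next were Col2a1 (1374), Col5a2 (946), Col3a1 (888), Col5a1 (846) and Col12a1 (576). In Prx1-EV they were Col2a1 (1166), Col5a2 (755), Col3a1 (540.3), Col5a1 (531) and Col8a1 (373), with Col3a1 and Col5a1 not apart beyond counting error. In All-EV they were Col5a2 (311), Col18a1 (170.3), Col3a1 (156), Col4a1 (154) and Col2a1 (127). Of these All-EV neighbours, Col18a1 and Col3a1, and Col3a1 and Col4a1, were not apart beyond counting error. The order below the type I chains depends on the assumed length. With exon-union lengths the chains after type I were Col5a1, Col2a1 and Col5a2 in Ocn-EV, Col2a1, Col5a1 and Col5a2 in Prx1-EV and Col5a2, Col4a1 and Col18a1 in All-EV.

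The cultures of Ocn-EV and Prx1-EV were compared directly to see how the Cre-derived vesicle groups differed from each other. Col11a1 was the 1 collagen gene of 21 at least 2-fold higher in Ocn-EV, where 0.325% of all genes were, and 0 were 2-fold lower, against 0.19% of all genes. Its level was 575 in Ocn-EV and 192 in Prx1-EV, 2.99-fold higher (log2 1.58, 1.35 to 1.81). At 1.5-fold, 7 of 21 were higher and 1 lower in Ocn-EV, where 2.24% and 1.3% of all genes were. Beside Col11a1 these were Col15a1 (0.87), Col3a1 (0.72), Col12a1 (0.70), Col5a1 (0.67), Col1a2 (0.61) and Col5a3 (0.61), and Col20a1 (−0.73) was the lower one. The median log2 ratio over the 21 was 0.32, against −0.01 for all genes. Intervals included 0 for Col4a2, Col4a5 and Col7a1, lay below 0 for Col18a1 (at −0.41) and Col20a1, and lay above 0 for the others.

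The binomial test on reads compares libraries and not the conditions. By it 17 of 21 collagen genes were higher and 1 lower in Ocn-EV over All-EV, where 30.8% of all genes were higher and 33.7% lower. In Prx1-EV over All-EV 19 were higher and 2 lower (31.6% and 32.4% of all genes), and in Ocn-EV over Prx1-EV 15 were higher and 2 lower (11.1% and 14.6% of all genes).

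The enzymes that modify new collagen chains differed between libraries mostly by less than 2-fold. For this and the following lists, 6.27% of all genes at the required level were 2-fold higher and 4.2% lower in Ocn-EV over All-EV. In Prx1-EV over All-EV 5.12% were higher and 3.66% lower. With equal totals those shares were 10.1% and 2.24% in Ocn-EV over All-EV and 8.2% and 2.1% in Prx1-EV over All-EV. Of 13 genes for hydroxylation and glycosylation at the required level, 2 were 2-fold higher and 0 lower in Ocn-EV over All-EV (median log2 0.38), and 2 higher and 0 lower in Prx1-EV over All-EV (0.32). P3h4, part of a complex for lysine hydroxylation, stood at 294 in Ocn-EV, 225 in Prx1-EV and 101 in All-EV, and the prolyl hydroxylase subunit P4ha3 at 124, 106 and 45.3. P4hb, the shared subunit of prolyl 4-hydroxylase, stood at 9768, 10857 and 12509.6, and the folding isomerase Ppib at 1673, 1740.4 and 2231. With equal totals the medians were 0.63 and 0.55.

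Among 12 genes for folding and export, 3 were 2-fold higher and 0 lower in Ocn-EV over All-EV (median 0.11), and 2 higher in Prx1-EV over All-EV (0.19). The shares of all genes 2-fold higher were 6.27% and 5.12%. The collagen chaperone Serpinh1 stood at 5274 in Ocn-EV, 4076 in Prx1-EV and 1369 in All-EV, and the prolyl isomerase Fkbp10 at 1243, 875 and 355. The general export coat gene Sec31a stood at 2078, 2134 and 2231, and the calcium-store channel Tmem38b at 706, 829 and 978. With equal totals the medians were 0.36 and 0.42.

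Genes that act on collagen after its secretion were also listed. Of 9 genes for propeptide removal and crosslinking, 6 were 2-fold higher in Ocn-EV over All-EV (median 1.06) and 3 in Prx1-EV over All-EV (0.72), with 0 lower in either. Among all genes 6.27% and 5.12% were 2-fold higher and 4.2% and 3.66% lower. Pcolce, an enhancer of propeptide removal, stood at 1006 in Ocn-EV, 761 in Prx1-EV and 295 in All-EV, and the crosslinking enzyme Lox at 11868, 9709 and 3989. Loxl4 stood at 69.4, 96.0 and 65.6, and Adamts14, a remover of amino-terminal propeptides, at 87.0, 65.4 and 79.2. Of 7 fibril partners, 6 were 2-fold higher in Ocn-EV over All-EV (median 1.69) and 3 in Prx1-EV over All-EV (0.98). With equal totals 7 and 5 were, where 10.1% and 8.2% of all genes were. The fibril-binding proteoglycan Fmod stood at 3089.7 in Ocn-EV, 1982 in Prx1-EV and 373 in All-EV, Postn at 3137, 2001 and 730, Bgn at 4867, 3951 and 2163 and Fbln1 at 90.1, 60.2 and 46.4. Lum, another fibril proteoglycan, had 0 reads in all 3 libraries.

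Of 7 collagen receptor genes, 4 were 2-fold higher in Ocn-EV over All-EV (median 1.13) and 3 in Prx1-EV over All-EV (0.68). Among all genes 6.27% and 5.12% were 2-fold higher and 4.2% and 3.66% lower. The integrin subunits Itga1 and Itga11, which bind collagen with Itgb1, stood at 111 and 2375 in Ocn-EV, 119 and 1913 in Prx1-EV and 20.4 and 551 in All-EV. Itgb1 itself stood at 21825, 23571 and 20042, and the inhibitory receptor Lair1 of leukocytes at 911, 952 and 592. In the breakdown list of 10 genes, 1 was 2-fold higher and 5 lower in Ocn-EV over All-EV (median −0.51), and 1 higher and 4 lower in Prx1-EV over All-EV (−0.68). The gelatinase Mmp2 stood at 1744 in Ocn-EV, 1138 in Prx1-EV and 476 in All-EV and the inhibitor Timp3 at 5522, 4351 and 2921. The collagenase Mmp8 stood at 836, 1008 and 8978 and the gelatinase Mmp9 at 39.3, 52.3 and 2865. With equal totals 2 were higher and 4 lower in Ocn-EV over All-EV, against 10.1% and 2.24% of all genes.

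Markers of several cell types moved beside the collagen genes, and their part in the collagen values was not tested. Among all genes, 6.27% were 2-fold higher in Ocn-EV over All-EV and 5.12% in Prx1-EV over All-EV, and 4.2% and 3.66% were 2-fold lower. The 12 stromal markers summed to 3757 in Ocn-EV, 2821 in Prx1-EV and 1882 in All-EV; 4 of 8 at the required level were 2-fold higher in Ocn-EV and 1 in Prx1-EV than in All-EV, 0 were lower, and none was at 0 in all libraries. Prrx1 of this list stood at 715, 522 and 303, and Pdgfrb at 539.5, 379 and 129, while Nt5e stood at 118, 124 and 225 and Vcam1 at 63.2, 61.1 and 81.5. With equal totals 5 of 8 were 2-fold higher in Ocn-EV and 3 in Prx1-EV than in All-EV, where 10.1% and 8.2% of all genes were. The osteoblast list of 9 genes summed to 2224 in Ocn-EV, 912 in Prx1-EV and 395 in All-EV, with 3 of 4 at the required level 2-fold higher in each Cre-derived culture. Of this list Bglap and Phex had 4 reads each in Ocn-EV and 0 in Prx1-EV and in All-EV. Bglap2 had 5, 2 and 0 reads in Ocn-EV, Prx1-EV and All-EV, Ifitm5 had 9, 3 and 0 and Dmp1 had 19, 17 and 0. In Ocn-EV over All-EV the intervals of Bglap, Phex and Bglap2 included 0. All 6 smooth muscle and myofibroblast markers were 2-fold higher in both, with sums of 28553 in Ocn-EV, 27111 in Prx1-EV and 10350.4 in All-EV.

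Macrophage markers were abundant in all 3 cultures labelled as stromal cells. The 12 genes summed to 151859 in Ocn-EV, 130775 in Prx1-EV and 243941 in All-EV, with 2 members 2-fold higher and 2 lower in Ocn-EV over All-EV and 0 higher and 2 lower in Prx1-EV over All-EV. The higher ones in Ocn-EV over All-EV were C1qa, at 5730 in Ocn-EV, 3533 in Prx1-EV and 2568 in All-EV, and C1qc, at 8556, 6261 and 3836. Lyz2 and Itgam, the latter at 8534, 7532 and 22791, were the lower ones in both comparisons. Without Lyz2, at 51741 in Ocn-EV, 40548 in Prx1-EV and 140306 in All-EV, the other 11 summed to 100118 in Ocn-EV, 90227 in Prx1-EV and 103635 in All-EV. Shares of all genes on the deposited scale were 6.27% higher and 4.2% lower in Ocn-EV over All-EV and 5.12% and 3.66% in Prx1-EV over All-EV. With equal totals 4 members were 2-fold higher and 2 lower in Ocn-EV over All-EV, against 10.1% and 2.24% of all genes. The neutrophil list, with Elane, Ltf and Ly6g at 0 in all libraries, summed to at most 57.7 in any library. The epithelial and Schwann cell lists summed to at most 31.7, with Krt5 and Krt14 at 0 in all libraries. Adipoq and Lep of the 5 adipocyte markers were at 0, and Fabp4 held most of that list's reads, at 1084 in Ocn-EV, 1530.1 in Prx1-EV and 1734 in All-EV.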

How the data were processed

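Messenger RNA was measured in 3 cultures of bone marrow stromal cells, 1 library per vesicle group, with groups taken from the treatment label. The authors deposited 1 signal value per gene and library, a read count divided by a size factor. Per the submitters' processing notes, which give no order or settings, the tools were HISAT2 2.2.1, DESeq2 2.11.40.8 (a number in the form of a Galaxy wrapper version), featureCounts 2.0.3, FastQC 0.74 and Trimmomatic 0.38.1, with build mm10. Whether counting used strand is unstated. Among collagen genes at the required level, exons of Col5a1 (2.50% of bases) and Col4a2 (0.98%) overlap antisense genes most. Under that level, Col9a3 (6.07%), Col4a3 (5.65%) and Col6a4 (3.39%) overlap them more. Col20a1 (1.54%), Col3a1 (1.44%) and Col7a1 (0.35%) share exon bases with genes on the same strand.

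Whole reads were recovered from each library's step size (100% of values whole at a tolerance of 1e-06). Symbols came from RefSeq GRCm38.p6 by gene identifier (25275 of 27179 matched; all 44 members), lengths from the longest GENCODE vM21 transcript (10798 of 11067 genes at the required level). Ratios used a pseudocount of 1, with 95% Clopper-Pearson intervals. For a count of 0 a floor of 3 reads was set apart from those intervals. Reads are not independent molecules, so intervals and floors cover counting error only. With 1 library a group the calls rest on fold size. A binomial test on reads (Benjamini-Hochberg, 0.05) called 7134, 7092 and 2840 genes in Ocn-EV over All-EV, Prx1-EV over All-EV and Ocn-EV over Prx1-EV. Calculations were checked on simulated data (Python 3.11.15, scipy 1.17.1; edgeR 4.0.16 for TMM).

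The collagen members, classes, pathway and marker lists were chosen with earlier results of these data known. Collagen genes at the required level are named with all values. Of each pathway list the 2 highest and 2 lowest ratios in Ocn-EV over All-EV are named. Lum, Sox9, Bglap, Bglap2, Dmp1, Ifitm5, Phex, Prrx1, Pdgfrb, Nt5e, Vcam1, Comp, Lyz2 and Fabp4, and the genes at 0, were added after their values were seen. So were Runx2, Sp7, Alpl and Ibsp, the osteoblast markers at the required level, and C1qa, C1qc and Itgam of the macrophage list. Scaling, filter, pseudocount, fold and trend alternatives are given in the closing section.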

Additional observations from a re-analysis of the deposited data

Results flagged for a closer look

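Col5a3, a type V collagen chain, lay above All-EV in Ocn-EV (log2 0.27, −0.02 to 0.56) and below All-EV in Prx1-EV (−0.34, −0.65 to −0.03), from 231, 179 and 175 reads in Ocn-EV, Prx1-EV and All-EV. It was the 1 gene of the 21 whose ratio had opposite signs in the comparisons with All-EV. Each group is 1 library, both comparisons use the same All-EV library, and the difference between them was not tested.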

How the results depend on the processing

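No paired analysis was possible because each group has 1 library and the labels give no replicate numbers. For the same reason no library could be left out of a group. Of 315 gene ratios recomputed under other scalings, pseudocounts and the length and GC trend, 311 kept their sign. The exceptions with the trend removed were Col7a1 (−0.02) and Col5a3 (−0.17) in Ocn-EV over All-EV and Col4a2 (−0.01) in Ocn-EV over Prx1-EV. With equal totals the exception was Col7a1 (0.01) in Ocn-EV over Prx1-EV. A pseudocount cannot change a sign, so the 63 ratios at 0.1 and the 63 at 5 kept theirs by construction. Ratios left their counting interval in 35 cases with the trend removed and in 30 with equal totals.

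The median log2 ratio of collagen genes in Ocn-EV over All-EV and in Prx1-EV over All-EV was 2.46 and 2.01 with equal totals, 1.83 and 1.21 with a mean level of at least 10, and 0.75 and 0.90 with no filter. It was 2.49 in Ocn-EV over All-EV and 0.53 in Ocn-EV over Prx1-EV with a mean level of at least 200, and 1.44 in Prx1-EV over All-EV with the trend removed. The Prx1-EV over All-EV median of 0.90 with no filter was the value of Col28a1, from 1 read in Prx1-EV. With no filter 43 collagen genes were counted. Of these 21 were 2-fold higher and 2 lower in Ocn-EV over All-EV (14.7% and 10.9% of all genes), 19 higher and 6 lower in Prx1-EV over All-EV (10.7% and 10.9%), and 7 higher and 3 lower in Ocn-EV over Prx1-EV (9.06% and 5.18%). In Ocn-EV over Prx1-EV, 2 of 28 were 2-fold higher when the required mean was 10 (2.06% of all genes). With the trend removed, 1 was 2-fold lower in Ocn-EV over All-EV (Col18a1). At 1.5-fold, 1 was lower in Ocn-EV over All-EV, and 7 were higher and 1 lower in Ocn-EV over Prx1-EV. By the binomial test on reads 1 was lower in Ocn-EV over All-EV, 2 were lower in Prx1-EV over All-EV, and 15 were higher and 2 lower in Ocn-EV over Prx1-EV. A lower filter adds genes with few reads, and the binomial test asks for no fold.

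The log2 ratio of summed collagen reads in Ocn-EV over All-EV, Prx1-EV over All-EV and Ocn-EV over Prx1-EV was 2.34, 1.82 and 0.52 with TMM factors and 2.32, 1.89 and 0.44 without Col1a1, Col1a2 and Col3a1. With the authors' size factors, an alternative chosen after seeing the data, it was 2.33, 1.81 and 0.52. Without those 3 genes the collagen share of reads was 0.296% in Ocn-EV, 0.218% in Prx1-EV and 0.0591% in All-EV. Exon-union lengths for ratios and ranks of chains, and sums of markers without Lyz2 or Comp, were also chosen after seeing the data.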

Other observations

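Some collagen-related genes under the required mean level had more reads in the Cre-derived cultures and others fewer. Comp, a cartilage and tendon matrix protein that binds collagen, had 52 reads in Ocn-EV, 36 in Prx1-EV and 4 in All-EV. Tll1, a relative of the propeptide-removing protease Bmp1, had 55 reads in Ocn-EV, 67 in Prx1-EV and 20 in All-EV. Pcolce2, a second enhancer of propeptide removal, had 47 reads in Ocn-EV, 20 in Prx1-EV and 12 in All-EV. In the other direction, Dcn, a proteoglycan that coats fibrils, had 3 reads in Ocn-EV, 3 in Prx1-EV and 23 in All-EV. Adamts3, a remover of amino-terminal propeptides, had 14, 25 and 24 reads in Ocn-EV, Prx1-EV and All-EV, and the integrin subunit Itga2 had 8, 14 and 16. These genes were chosen after their values were seen.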
